A study of Mus musculus with 8 samples.

Results

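The genes of mouse chromosome 8 were followed in wild-type and Foxa2 null embryos at embryonic day 7.5, gene by gene in their order along the chromosome. A gene was a member if a probe set (the group of short probes that reads 1 transcript) named that gene alone and the gene lies on chromosome 8 of assembly GRCm38. There were 938 such genes among the 18172 with a known position on either platform. The U74Av2 arrays measured 409 of them and the MOE430v2 arrays 932, and 403 were on both. Each gene is given by its brightest probe set on that platform. The chromosome was chosen by its genes' ratios of mutant to wild-type signal in these same pools, so its difference between genotypes is a description of the data and not a test.

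The wild-type embryos were ICR, from timed matings, in pools of 53 and 50. The Foxa2 null embryos were grown from Foxa2 null embryonic stem (ES) cells by tetraploid complementation, in pools of 53 and 48. In that method ES cells are aggregated with a wild-type tetraploid host, the host supplies the extra-embryonic tissues, and embryos were kept if the embryo proper lacked the green fluorescent protein of the host. The extra-embryonic region was cut away from all embryos, but the overlying visceral endoderm was left on, and in the mutant pools it was wild-type host tissue. Stages ran from mid-streak to head-fold, with wild-type pool 2 the youngest by the staging in the study. The labels of the mutant arrays also give ICR, and the strain of the ES cells and whether they were 1 clone are not given in the sources used here. Genotype, ES cell origin and strain therefore cannot be told apart. Each of the 4 RNA extracts went on 1 array of each platform, so n is 2 pools per genotype, an exact permutation test cannot give a p below 0.333, and the MOE430v2 arrays repeat the same extracts.

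Foxa2 is a forkhead transcription factor needed for the node, the notochord and the definitive endoderm. The genes of a chromosome have no function in common. Chromosome 8 carries housekeeping genes of replication, translation and mitochondria, developmental regulators such as Foxf1, Hand2 and Smad1, and families used mainly in adult tissues, such as the defensins. Mouse ES cells in culture are known to gain or lose whole chromosomes, chromosome 8 among them. The chromosome content of these cells was not measured here.

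The promoters of 3 members are shown because these genes mark the extremes of the chromosome. Egln1 had the highest called ratio on both platforms together, and Apela was the only member called lower. Dand5, chosen after its values were seen, was far below the chromosome median. Each sequence runs 5′ to 3′ on the gene's strand from 250 bases before the RefSeq start to 50 after it (GRCm38.p6, minus strand for all 3). The windows are chr8:124949205-124949504 for Egln1, chr8:65037287-65037586 for Apela and chr8:84822774-84823073 for Dand5. Capitals mark matches on either strand to TGTTTAC, the core of forkhead sites, or to ACGTG, the core of hypoxia response elements. The motifs can share the letters AC where they adjoin, which happened in none of the 3 windows.
Egln1: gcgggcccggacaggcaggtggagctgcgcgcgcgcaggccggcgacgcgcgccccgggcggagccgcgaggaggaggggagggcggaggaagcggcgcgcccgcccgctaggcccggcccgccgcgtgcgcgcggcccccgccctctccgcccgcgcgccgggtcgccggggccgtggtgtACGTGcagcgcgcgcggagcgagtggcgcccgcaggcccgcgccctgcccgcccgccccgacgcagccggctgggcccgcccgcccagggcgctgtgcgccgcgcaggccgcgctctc
Apela: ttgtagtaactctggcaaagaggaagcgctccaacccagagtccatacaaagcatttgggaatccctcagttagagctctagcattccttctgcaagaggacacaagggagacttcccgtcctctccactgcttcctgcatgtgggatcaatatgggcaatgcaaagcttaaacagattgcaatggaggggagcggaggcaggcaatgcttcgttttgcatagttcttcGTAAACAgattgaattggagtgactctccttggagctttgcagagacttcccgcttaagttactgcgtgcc
Dand5: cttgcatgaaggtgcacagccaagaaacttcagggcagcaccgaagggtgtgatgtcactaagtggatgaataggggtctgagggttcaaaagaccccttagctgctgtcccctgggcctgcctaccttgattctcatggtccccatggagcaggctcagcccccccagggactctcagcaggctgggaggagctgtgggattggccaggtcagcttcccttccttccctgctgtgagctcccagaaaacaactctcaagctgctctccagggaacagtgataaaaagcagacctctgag
The Apela window held 1 forkhead core, read on the other strand, and no ACGTG. The Egln1 window held 1 ACGTG and no forkhead core, and the Dand5 window held neither. Of 32851 RefSeq promoter windows of this length, 3.65% held the forkhead core and 19.6% held ACGTG. Among the 1442 windows of chromosome 8 the shares were 3.68% and 19.3%, close to those of the genome. A match of letters is not a bound site.

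Foxa2 itself was lower in the mutant pools on both platforms. On U74Av2 its log2 signal was 7.37 and 8.08 in wild-type against 6.39 and 6.55 in Foxa2 null pools. On MOE430v2 it was 9.62 and 10.17 against 8.96 and 9.06. The groups did not overlap on either platform. Whether the probe sets lie in the deleted part of the gene is not given in the sources used here. Pou5f1, a marker of the epiblast, was high in all 4 pools by its brightest probe set, with a log2 signal of 10.45 to 10.88 on U74Av2 and from 11.95 up to 12.38 on MOE430v2.

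The chromosome as a whole stood higher in the Foxa2 null pools. The median difference in log2 signal, Foxa2 null minus wild-type (the ratio below), was 0.30 over the 409 U74Av2 members, a 1.23-fold difference, and 0.33 over the 932 MOE430v2 members, a 1.26-fold difference. The genes of all other autosomes together had medians of -0.04 and -0.02. The 18 other autosomes taken singly ran from -0.08 to 0.01 on the first array and from -0.05 to 0.00 on the second. No other autosome came near chromosome 8 on either array.

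The difference was of like size in every pairing of pools. Foxa2 null pool 1 minus wild-type pool 1 gave a chromosome 8 median of 0.36 on U74Av2 and 0.32 on MOE430v2. The other 3 pairings gave 0.30 to 0.32 and 0.30 to 0.33. Within a genotype the median moved by no more than 0.03. Wild-type pool 2 minus pool 1 had a median of -0.03 on U74Av2 and 0.03 on MOE430v2, and Foxa2 null pool 2 minus pool 1 had -0.02 and 0.00. These within-genotype differences played no part in the choice of the chromosome. Wild-type pool 2 held the younger embryos, and the part of stage in the chromosome 8 difference was not tested.

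**Figure D1:**
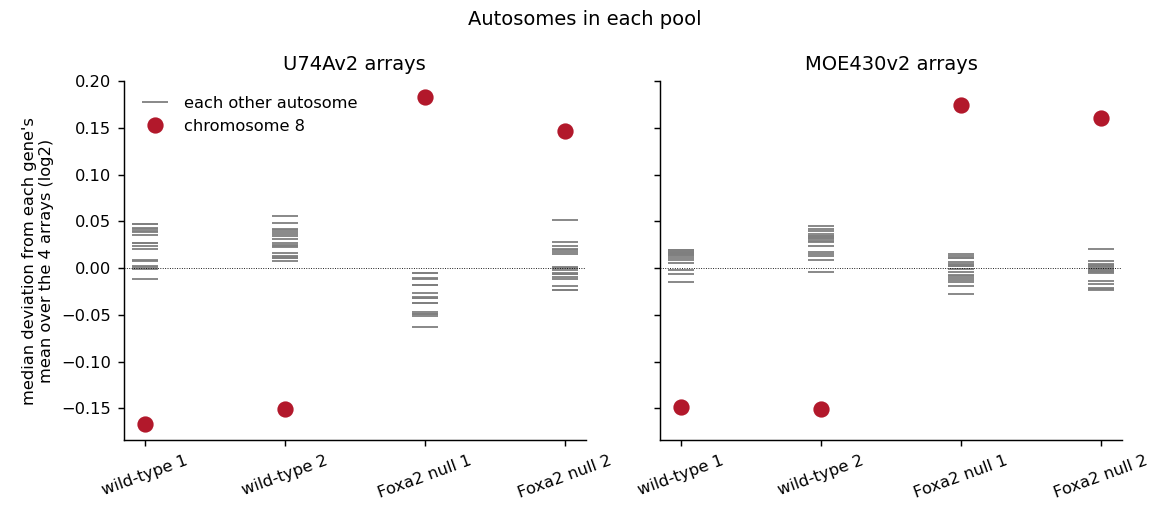
Median deviation (log2, vertical axis) of the genes of each autosome from each gene's own mean over the 4 arrays, for each pool (horizontal axis), on U74Av2 (left) and MOE430v2 (right). Red points are chromosome 8 and grey dashes the 18 other autosomes. Chromosome 8 lay at -0.17 and -0.15 in wild-type pools on U74Av2 and at 0.18 and 0.15 in mutant pools, while the others stayed between -0.06 and 0.06.

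In bulk samples a change in the share of cells of one type and a change in RNA per cell cannot be told apart. Visceral endoderm was left on all embryos at dissection. The study states that wild-type embryos displace this tissue while the mutants fail to, and that its markers appear enriched in the mutants. The visceral endoderm markers were therefore summed. Of 17 on U74Av2 and 18 on MOE430v2, 8 and 9 were higher in all 4 comparisons of pools, with median ratios of 0.30 and 0.23. Among genes of the other autosomes, 15.6% and 19.6% were higher in this way. On U74Av2 the log2 of the summed signal was 13.53 and 13.55 in wild-type pools, 13.94 in Foxa2 null pool 1 and 13.48 in Foxa2 null pool 2. On MOE430v2 it was 16.60 and 16.70 against 17.00 and 16.69, so the sum was highest in Foxa2 null pool 1 on both arrays. For 11 trophoblast markers the summed level was 11.68 to 11.69 in wild-type and 11.69 to 11.94 in Foxa2 null pools on U74Av2. On MOE430v2 it was 14.49 to 14.50 against 14.50 to 14.69. Of these 11, 3 were higher in all 4 comparisons and 0 lower on U74Av2, and 5 and 1 on MOE430v2. The 8 parietal endoderm markers summed to 10.22 to 10.26 against 10.15 in both mutant pools on U74Av2, and to 13.26 and 13.40 against 13.00 to 13.17 on MOE430v2. Of these 8, 1 was higher in all 4 comparisons and 3 lower on U74Av2, and 0 and 4 on MOE430v2. On the other autosomes 22.4% and 23.4% of genes were lower in this way. None of these markers was at a signal of 0 on any array, and the part of the 3 lists in the chromosome 8 difference was not tested.

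Read one gene at a time, the members leaned the same way. Of the 409 U74Av2 members, 209 were higher in both Foxa2 null pools than in both wild-type pools (51.1%), 38 were lower in both (9.29%) and 162 overlapped. On the other autosomes 15.6% of genes were higher in this sense and 22.4% lower. Of the 932 MOE430v2 members, 463 were higher (49.7%), 96 were lower (10.3%) and 373 overlapped. The other autosomes had 19.6% higher and 23.4% lower. Nothing is read from these shares beyond the difference that singled out the chromosome.

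The ratios were higher among the brighter genes. Genes were split into 5 quintiles by mean log2 signal over all autosomal genes with a position on the platform. In the lowest quintile, where the median difference between the 2 wild-type pools was 0.77 on U74Av2 and 0.74 on MOE430v2 in either direction, the chromosome 8 median was -0.05 and 0.10. In the second it was -0.02 and 0.04. The other autosomes had medians of -0.21 and 0.02 in the lowest quintile and -0.10 and -0.01 in the second, so that on U74Av2 the dim members too stood above them. In these 2 quintiles 23.3% and 25.4% of U74Av2 members were higher in all 4 comparisons of pools, against 9.84% and 13.9% on the other autosomes. On MOE430v2 the shares were 18.1% and 20.9% against 19.1% and 18.7%. The chromosome 8 median was 0.31 and 0.23 in the middle quintile, 0.33 and 0.38 in the fourth, and 0.43 and 0.44 in the highest, which are 1.34- and 1.35-fold differences in the highest. The other autosomes stayed between -0.03 and 0.01 in the upper 3 quintiles of MOE430v2 and the upper 2 of U74Av2.

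The spread of the bright genes was narrow. In the highest MOE430v2 quintile the middle 50% of the 239 chromosome 8 genes lay between 0.26 and 0.58, and the middle 50% of the 3242 other autosomal genes between -0.16 and 0.09. These ranges did not meet. Of the bright members 94.6% were above 0 on MOE430v2, and the same share of 112 were on U74Av2. Counted over the upper 2 quintiles, 179 of 198 U74Av2 members and 399 of 429 MOE430v2 members had a ratio above 0. Between the 2 wild-type pools the same genes were split more evenly, with 41.4% and 50.8% higher in pool 2.

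**Figure D2:**
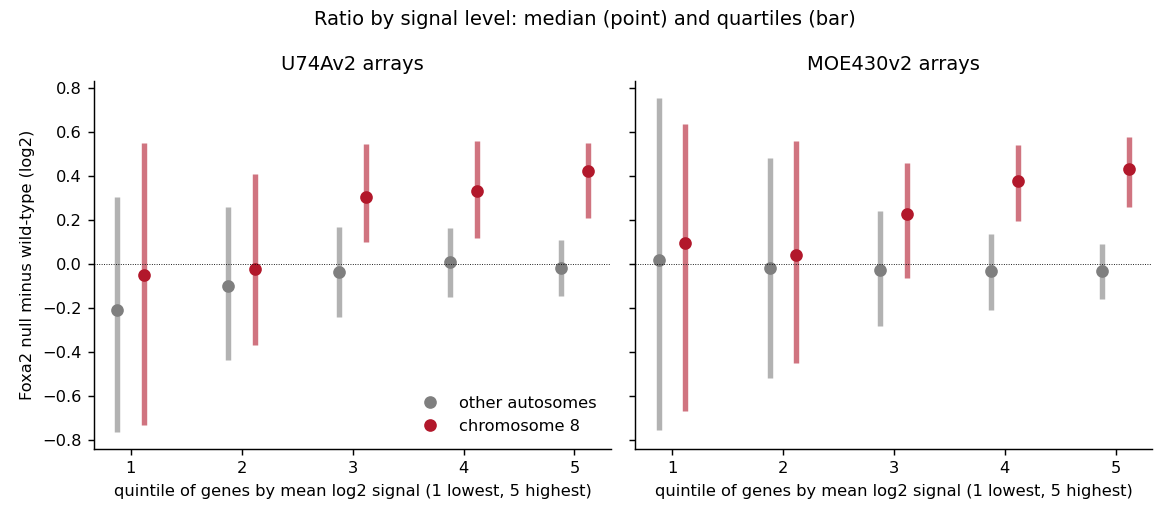
Foxa2 null minus wild-type in log2 signal (vertical axis) by quintile of mean signal (horizontal axis) for chromosome 8 genes (red) and all other autosomes (grey) on each platform. Points are medians and bars run from the first to the third quartile. Chromosome 8 medians rose from -0.05 to 0.43 on U74Av2 and from 0.10 to 0.44 on MOE430v2 between the lowest and the highest quintile, while the bars narrowed.

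Large ratios were common and nearly all upward. In the upper 2 quintiles, 44 of 198 U74Av2 members (22.2%) and 90 of 429 MOE430v2 members (21%) were at least 1.5-fold higher in the mutant pools. On the other autosomes 1.61% and 1.36% were. Only 1 member on each platform was at least 1.5-fold lower, Ing1 on U74Av2 and Apela on MOE430v2, against 2.11% and 2.62% of other genes. Ing1, a chromatin regulator, read -0.63 on U74Av2 but 0.60 on MOE430v2, so its probe sets disagreed.

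Short and long genes were both higher. In the upper 2 quintiles, genes of short, middle and long span (3 equal classes over all autosomes) had chromosome 8 medians of 0.31, 0.40 and 0.46 on U74Av2 and 0.39, 0.40 and 0.44 on MOE430v2. Of these members, 274 had further probe sets on MOE430v2, whose median was 0.37, beside 0.43 for the chosen ones. On U74Av2 65 members did, at 0.23 beside 0.40. Of all MOE430v2 members, 867 code for proteins and had a median of 0.34, and 60 are long non-coding RNAs with a median of -0.04. All 60 lay in the lower 3 signal quintiles, where the 440 protein-coding members had a median of 0.15.

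The medians were above 0 along the whole chromosome. The members were cut into 10 consecutive groups of 40 or 41 genes on U74Av2 and of 93 or 94 on MOE430v2. All 10 group medians were above 0 on both platforms, from 0.15 to 0.44 on the first and from 0.22 to 0.43 on the second. Groups of the same size on the other autosomes, 177 and 167 of them, had medians from -0.21 to 0.14 and from -0.15 to 0.10. Every chromosome 8 group thus lay above every such group on its platform.

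The lowest and the highest stretches were not the same on the 2 arrays. On U74Av2 the highest group was the fifth, from Slc27a1 to Prkaca (0.44), and the lowest was the seventh, from Gnao1 to Hsf4 (0.15). On MOE430v2 the highest was the fourth, from Cdkn2aip to Sugp2 (0.43), and the lowest was the first, from Insr to Arhgef10 (0.22). Restricted to the upper 2 signal quintiles, the medians of the groups spanned 0.19 to 0.47 (U74Av2) and 0.27 to 0.52 (MOE430v2). The last U74Av2 group, from Car5a to Itgb1, at 0.19, and the first, from Insr to Myom2, at 0.26, lay inside the range of such groups on the other autosomes, which reached 0.28. On MOE430v2 the first group was at 0.27 and the last at 0.37, above the 0.12 reached elsewhere. The first gene, Insr, the insulin receptor, overlapped between genotypes with a ratio of 0.06 on MOE430v2, and Itgb1, the last of the U74Av2 members, was at 0.46.

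**Figure D3:**
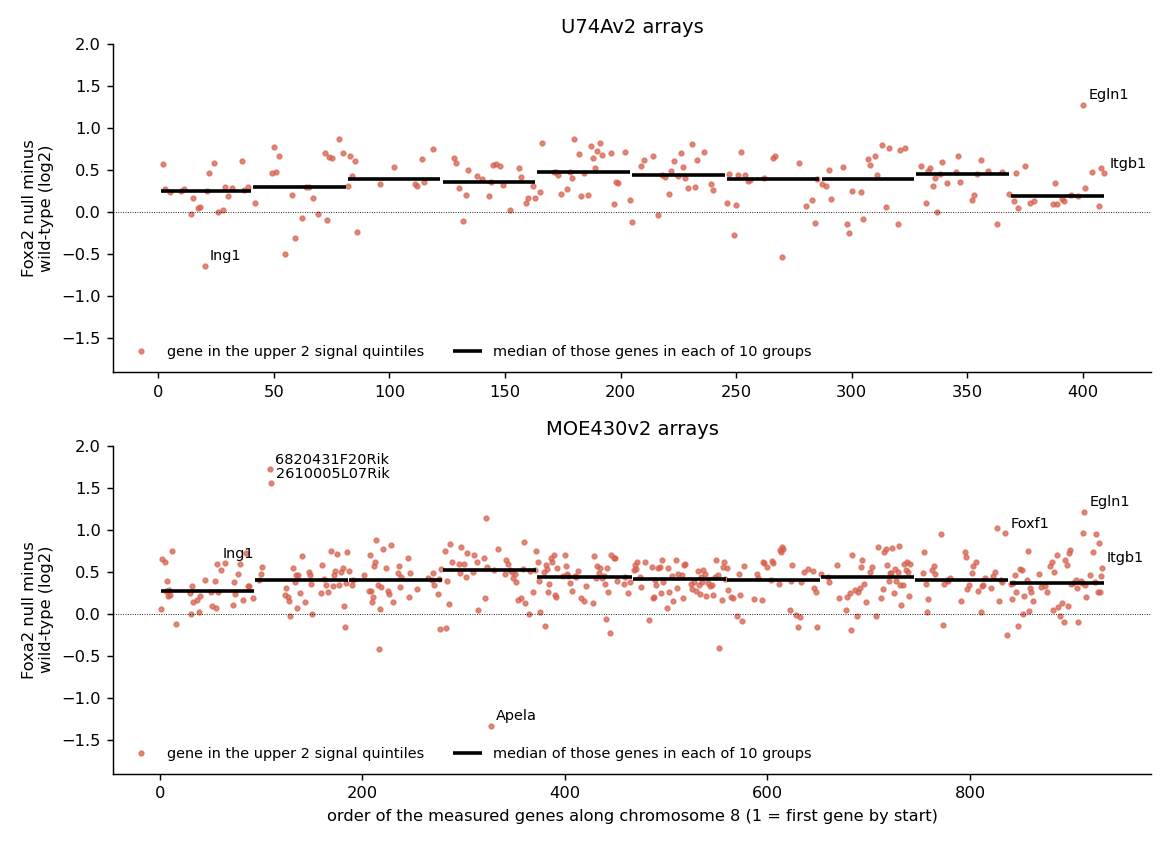
Foxa2 null minus wild-type in log2 signal (vertical axis) for chromosome 8 genes in the upper 2 signal quintiles, in gene order (horizontal axis), on U74Av2 (top) and MOE430v2 (bottom). Black lines are medians of these genes in each of 10 consecutive groups. The lines lie between 0.19 and 0.47 on U74Av2 and between 0.27 and 0.52 on MOE430v2, and Apela is the single gene far under 0.

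Few single genes passed the test on 1 platform. By limma with Benjamini-Hochberg adjustment over all probe sets tested, 1 of 344 tested U74Av2 members was higher and 0 were lower. The background over all U74Av2 probe sets was 0.104% higher and 0.173% lower. On MOE430v2, 14 of 734 tested members were higher and 1 was lower, and the background was 0.19% and 0.244%. These tests use the contrast that picked out the chromosome, so the counts describe it and nothing more is read from them. The members left out for low signal numbered 65 and 198.

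Averaged over both arrays of an extract, 57 of 320 members tested on both platforms (17.8%) were higher and 0 were lower. Over all 5928 genes tested in this way 1.35% were called higher and 1.06% lower, and only 23 of the 80 higher genes lay on other chromosomes. All 57 were higher in all 4 comparisons of pools on each platform. They were called on the average of these same arrays, so nothing is read from that. The ratios of the 57 ran from 0.43 for Mcm5 to 1.25 for Egln1, with a median of 0.61, and the median of all 320 was 0.37. Leaving out wild-type pool 1 gave 12 calls and leaving out wild-type pool 2 gave 6. With limma fitted without an intensity trend it was 0, as it was on each platform alone.

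Egln1, an oxygen sensor that hydroxylates hypoxia-inducible factors and so leads to their breakdown, stood furthest above the rest. Its log2 signal was 7.31 and 7.09 in wild-type and 8.50 and 8.46 in Foxa2 null pools on U74Av2. On MOE430v2 it was 9.92 and 9.63 against 11.12 and 10.86. Both mutant pools were above both wild-type pools by more than either pair differed. Averaged over the platforms the ratio was 1.25 (standard error 0.14, adjusted p = 0.00552). Its second MOE430v2 probe set was at 0.89.

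Among the 13 listed developmental transcription factors tested on both platforms, Foxf1 and Hand2 had the highest averaged ratios. Klf1, an erythroid factor, was at 1.35 on MOE430v2 but was too dim there to test and overlapped. Foxf1, a forkhead factor of the lateral mesoderm, read 10.42 and 10.36 in wild-type and 11.24 and 11.46 in Foxa2 null pools on MOE430v2. It was dimmer on U74Av2, at 5.63 and 5.14 against 5.80 and 6.77. On MOE430v2 it rose by 0.96 with a standard error of 0.13 (adjusted p = 0.0214) and by 0.93 on the average of the platforms (adjusted p = 0.045). Hand2, a helix-loop-helix factor of heart and limb, was at 8.81 and 8.45 against 9.73 and 9.12 on MOE430v2, and its averaged ratio of 0.92 did not pass (adjusted p = 0.0732). The pools of the 2 genotypes did not overlap for either gene on either array. Smad1, the transducer of Bmp signals, was at 10.53 and 10.27 against 10.86 and 10.99 on MOE430v2 and rose by 0.66 on the average (adjusted p = 0.0308).

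Of the 12 members with the highest averaged ratios that were higher in all comparisons on both platforms, 7 passed the test. Besides Egln1 and Foxf1 these were Pcm1, a protein of the centriolar satellites (0.90), Wwc2 (0.83), Sin3b, a scaffold of histone deacetylase complexes (0.78), Hsbp1 (0.71) and Cpe, a peptide-processing enzyme (0.71). Pcm1 had a log2 signal of 10.76 and 10.61 in wild-type and 11.33 and 11.37 in Foxa2 null pools on MOE430v2. Sin3b had 10.67 and 10.73 against 11.53 and 11.28. Neither gene overlapped between genotypes. Eps15l1 (0.96), Hand2 (0.92), Jak3 (0.89), Dctn6 (0.74) and Vac14 (0.71) did not pass. Hsbp1 differed between the arrays, at 1.15 on U74Av2 and 0.28 on MOE430v2.

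**Figure D4:**
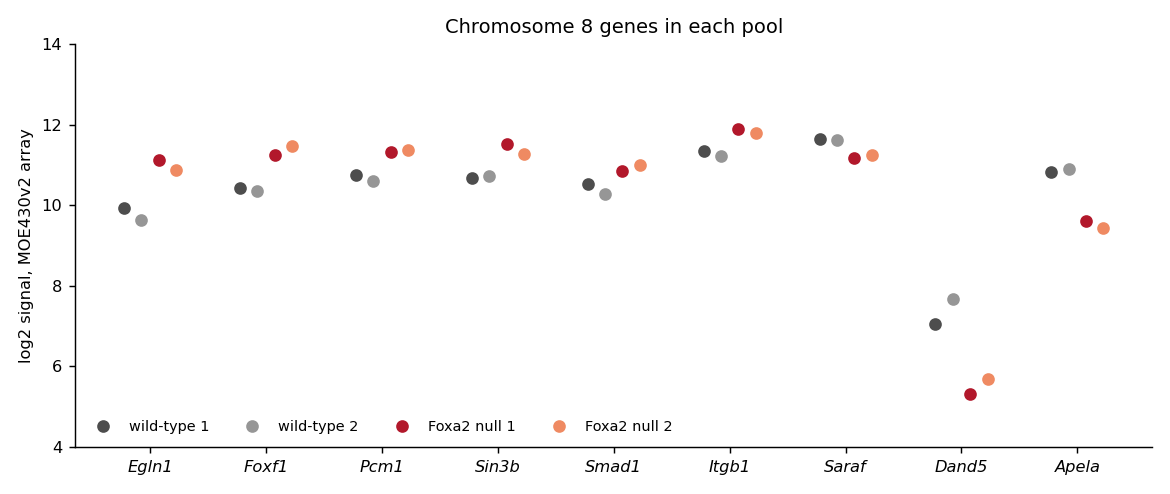
Log2 signal on the MOE430v2 arrays (vertical axis) of 9 chromosome 8 genes (horizontal axis) in each of the 4 pools, 1 point per pool. Egln1 to Itgb1 lie higher in both Foxa2 null pools, by 0.52 to 1.21, and Saraf, Dand5 and Apela lie lower in both.

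On MOE430v2 alone the largest called ratios were those of 6820431F20Rik and 2610005L07Rik. These are neighbouring transcribed pseudogenes among the defensin genes, numbers 109 and 110 in gene order, and transcripts of this kind may share probes with near copies, so their values are uncertain. 6820431F20Rik was at 8.86 and 8.54 in wild-type and 10.32 and 10.51 in Foxa2 null pools. 2610005L07Rik was at 11.60 and 11.27 against 13.05 and 12.93. They rose by 1.72 (adjusted p = 0.00887) and 1.56 (adjusted p = 0.00325), and the 7 other probe sets of 2610005L07Rik had a median of 0.98. The other members called higher there were Egln1, Foxf1, Irf2bp2, Nip7, Naf1, Chtf8, Polr2c, Ash2l, Lsm4, Tfdp1, Sap30 and Ddx39a, with ratios from 0.55 to 1.21. Tested members reached further out without passing, from -2.35 (4930505O20Rik) to 2.35 (Cacna1a) on MOE430v2 and from -1.38 (Ctrl) to 1.60 (Ccdc130) on U74Av2, none of them in the upper 2 signal quintiles.

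Most genes of replication and the cell cycle were bright and higher in the mutant pools, as bright members were in general. Of 18 listed genes on MOE430v2, 16 were higher in all 4 comparisons and 0 were lower, with a median of 0.41. Of 12 on U74Av2, 7 were higher and 2 lower, with a median of 0.40. Over all members, 49.7% on MOE430v2 and 51.1% on U74Av2 were higher in this way, against 19.6% and 15.6% on the other autosomes. In the upper 2 signal quintiles the 16 listed genes on MOE430v2 had a median of 0.39, beside 0.41 for all 429 members there, and the 9 on U74Av2 had 0.47, beside 0.37 for all 198. Tested on both platforms were 11, of which 3 were called higher, where 17.8% of all 320 members were. They were Cdc16, a subunit of the anaphase-promoting complex (0.67), Smarca5, a chromatin remodeller (0.58), and Mcm5, a subunit of the replicative helicase (0.43). Mcm5 was at 13.39 and 13.33 in wild-type and 13.76 and 13.73 in Foxa2 null pools on MOE430v2, a small difference held tightly by all pools. Tfdp1, the partner of the E2f factors, rose by 0.60 on MOE430v2 but overlapped on U74Av2.

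Genes of protein synthesis, folding and breakdown were above 0 on MOE430v2 without exception. All 13 there had ratios from 0.14 to 0.78, and 11 were higher in all 4 comparisons. Of all members in the fourth and highest quintiles, 70% and 84.1% were higher in this way on MOE430v2, and 58.1% and 76.8% on U74Av2. The median of the 13 genes, 0.38, lay beside 0.41 for all MOE430v2 members of the upper 2 quintiles, to which all 13 belong. On U74Av2 9 of 11 were higher in all 4, with a median of 0.50 and a wider range, from -0.26 to 1.15. Of 10 tested on both platforms 5 were called higher, where 17.8% of all members were, and so short a list singles out nothing. Among the 5 were Nip7, a factor of ribosome assembly (0.62), Lsm4, an RNA-binding protein of the spliceosome (0.61), Psmd7 of the proteasome (0.55) and Eif4ebp1, an inhibitor of translation initiation (0.53). Lsm4 was at 12.21 and 12.28 against 12.96 and 12.87 on MOE430v2. Nip7 was at 11.35 and 11.22 against 12.09 and 12.04. The genotypes did not overlap for either.

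The metabolic group held Egln1 and the mitochondrial genes. On MOE430v2 14 of 17 were higher in all 4 comparisons and 0 were lower, with a median of 0.35. Of all members in the fourth and highest quintiles there, 70% and 84.1% were higher in this way. On U74Av2 9 were higher and 2 lower, with a median of 0.26. In the upper 2 signal quintiles the 15 listed genes on MOE430v2 had a median of 0.35, beside 0.41 for all members there. The 11 on U74Av2 had 0.34, beside 0.37. Of 17 tested on both, 4 were called higher, not far from the 17.8% of all members. These were Egln1, the outer-membrane channel Vdac3 (0.57), the glycine cleavage protein Gcsh (0.51) and the ADP/ATP carrier Slc25a4 (0.51). Got2, mitochondrial aspartate aminotransferase, went opposite ways, at -0.53 on U74Av2 and 0.37 on MOE430v2.

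With dim genes included, the developmental transcription factors were mixed. Of 23 on MOE430v2, 11 were higher in all 4 comparisons and 3 lower, with a median of 0.20. On U74Av2 8 of 19 were higher and 2 lower, with a median of 0.26. Of all members, 49.7% on MOE430v2 and 51.1% on U74Av2 were higher in this way, against 19.6% and 15.6% on the other autosomes. In the upper 2 signal quintiles the 13 listed genes on MOE430v2 had a median of 0.37, beside 0.41 for all members there. Of these 13, 11 were above 0, 9 were higher in all 4 comparisons and 1 was lower. The 7 on U74Av2 had 0.26, beside 0.37, and 6 of them were above 0. Of 13 tested on both, 3 were called higher, again not far from the share of all members, namely Foxf1, Smad1 and Jund, a subunit of AP-1 (0.47). Foxc2, a forkhead factor of the paraxial mesoderm that lies near Foxf1, was at 10.50 and 10.31 in wild-type and 10.18 and 10.14 in Foxa2 null pools on MOE430v2. Its ratio of -0.25 had an adjusted p of 0.546, and on U74Av2 it overlapped at -0.15. Irx3, an Iroquois homeobox gene, was at 0.22 and 0.27, and Junb went opposite ways on the 2 arrays.

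Signalling genes spread widely. Of 20 on MOE430v2, 7 were higher in all 4 comparisons and 3 lower, with a median of 0.26 and a range from -1.47 to 1.84. The 8 in the upper 2 signal quintiles were all above 0, with a median of 0.21, and 2 were higher in all 4 comparisons. On U74Av2 6 of 15 were higher and 1 lower, with a median of 0.32. On the other autosomes 19.6% of MOE430v2 genes were higher in this way and 23.4% lower, and 15.6% and 22.4% of U74Av2 genes. Of 10 signalling genes tested on both platforms, 0 passed. The receptor Fgfr1 was higher in all comparisons, at 0.26 and 0.30. The Wnt antagonist Sfrp1 was at 0.00 on MOE430v2 and -0.30 on U74Av2, and the ephrin Efnb2 at 0.03 and -0.02, so that these well-expressed genes sat under the chromosome median. Nrp1, a receptor for semaphorins and Vegf, was at 10.72 and 9.99 in wild-type and 10.92 and 10.68 in Foxa2 null pools on MOE430v2. It overlapped on both arrays, as wild-type pool 1 lay above Foxa2 null pool 2.

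Adhesion and matrix genes were few. Itgb1, the beta subunit shared by many integrins, was at 10.48 and 10.52 in wild-type and 10.97 and 10.96 in Foxa2 null pools on U74Av2, and at 11.35 and 11.22 against 11.89 and 11.78 on MOE430v2. It rose by 0.51 on the average (adjusted p = 0.0308), and the 4 mutant readings were each above the wild-type readings of their array. Itgb1 was the only 1 of 5 matrix genes tested on both that passed. Lpl was also higher in all 4 comparisons on both arrays, with an averaged ratio of 0.62 that did not pass (adjusted p = 0.108). Plat went the other way, at -0.50 on the average. Col4a1 and Col4a2, which encode type IV collagen of basement membranes, overlapped on both arrays, at 0.05 to 0.26. Of the 8 cadherins 0 of 4 tested on both passed. Cdh1, epithelial cadherin, was at 12.76 and 12.67 against 12.96 and 13.06 on MOE430v2 (0.29) but overlapped on U74Av2 (-0.08), and Cdh11 was at 0.50 and 0.42. Among the metallothioneins Mt1 was at 0.62 and 0.44 and its neighbour Mt2 at 0.16 and 0.09, and 0 of 3 passed.

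The listed liver, gut and testis genes, such as defensins, carboxylesterases and clotting factors, were mostly dim. On MOE430v2, 17 of 24 were too dim to test, 6 were higher and 5 lower in all 4 comparisons, and the values ran from -4.29 to 2.14. On U74Av2, 2 of 16 were higher and 5 lower. Of 4 tested on both, 0 passed. Their medians of 0.17 (MOE430v2) and -0.12 (U74Av2) lay below those of the chromosome. Most of them were in the lowest 2 signal quintiles. Over all members in those 2 quintiles the medians were 0.10 and 0.04 on MOE430v2 and -0.05 and -0.02 on U74Av2. On the other autosomes 19.6% of MOE430v2 genes were higher in all 4 comparisons and 23.4% lower, and 15.6% and 22.4% of U74Av2 genes.

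**Figure D5:**
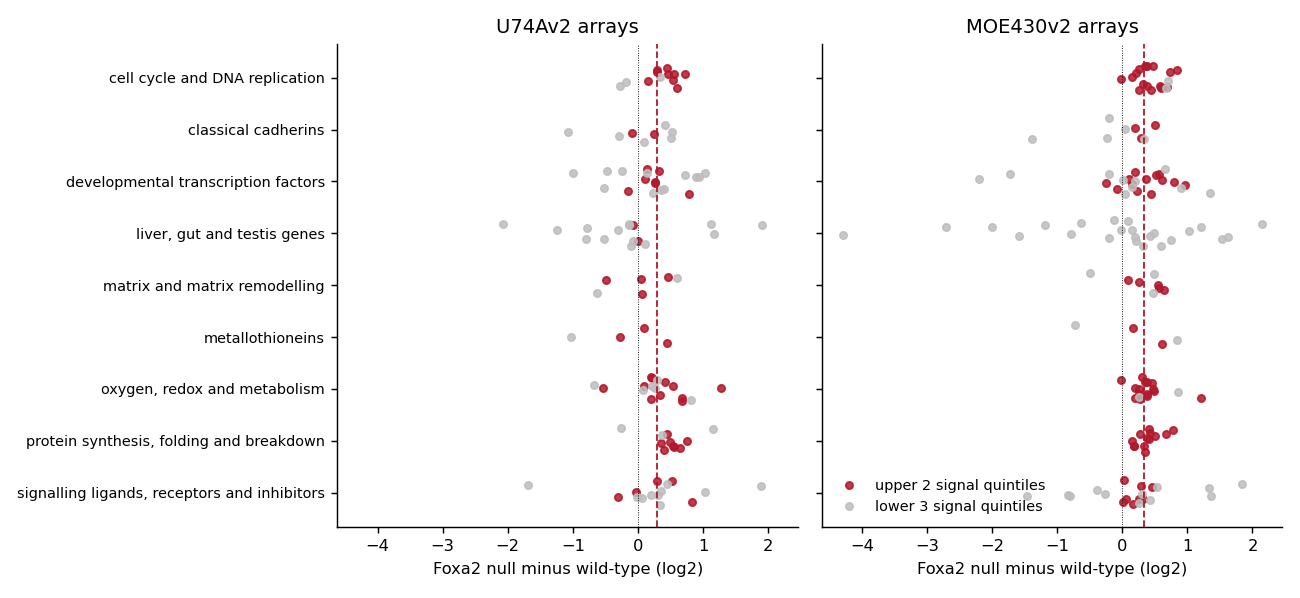
Foxa2 null minus wild-type in log2 signal (horizontal axis) of the listed chromosome 8 genes, 1 point per gene, in 9 groups (vertical axis), on U74Av2 (left) and MOE430v2 (right). Red points are genes in the upper 2 signal quintiles, grey points dimmer genes, the dashed line the chromosome median. The protein synthesis group has all 13 MOE430v2 genes above 0, and the liver, gut and testis group scatters from -4.29 to 2.14.

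Apela, which encodes a peptide ligand of the apelin receptor made in the early embryo, was the one member called lower. On MOE430v2 its log2 signal was 10.83 and 10.89 in wild-type against 9.61 and 9.44 in Foxa2 null pools. Both mutant pools lay more than 1 log2 unit under both wild-type pools, although the genes around it were higher in the mutant pools. The decrease was called, as Apela fell by 1.33 with a standard error of 0.14 (adjusted p = 0.00932). The call depended on the settings. Over the alternatives run, the limma adjusted p of Apela reached 0.449, while its ratio stayed between -1.41 and -1.24. Leaving out wild-type pool 1 or 2 gave an adjusted p of 0.0504 or 0.0716. Its second, dimmer probe set was at -0.43. Apela was not measured on U74Av2.

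Dand5, which encodes an inhibitor of Nodal made at the node, was lower still but dim. It was measured on MOE430v2 alone, at 7.06 and 7.67 in wild-type and 5.31 and 5.68 in Foxa2 null pools. The groups did not overlap, and the ratio of -1.87 (standard error 0.54) did not pass (adjusted p = 0.208). On the other autosomes, 15.6% (U74Av2) and 19.6% (MOE430v2) of genes were higher in all 4 comparisons on that platform, and 22.4% and 23.4% lower. The share on both platforms at once was not computed for those genes. Of the 320 members tested on both platforms, 166 were higher in all 4 comparisons on each and only 4 were lower: Nfix, Mc1r, Pcp2 and Saraf. The first 3 were dim, with averaged ratios of -1.36, -0.85 and -0.37. Saraf, a regulator of store-operated calcium entry, was bright, at 11.64 and 11.61 in wild-type and 11.16 and 11.24 in Foxa2 null pools on MOE430v2 and at 8.52 and 8.32 against 8.31 and 8.07 on U74Av2. Its averaged ratio of -0.33 had an adjusted p of 0.202, and on U74Av2 the groups were separated by only 0.01.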

How the data were processed

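RNA from pooled embryos was measured on 8 Affymetrix arrays, 4 of each platform. The authors deposited MAS5 signals, that is, a linear intensity for each probe set, scaled so that the mean after trimming 2% at each end was 150 on U74Av2 and 500 on MOE430v2. Probe design and scanner values are not given in the sources used here. Median signals were 48 to 52.8 and 155 to 165, and the number of arrays limits the precision.

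Signals were taken to log2 (floor 0.1) in R 4.3.3. U74Av2 values were used as deposited, and MOE430v2 values, which the methods normalized by loess, were put through cyclic loess. Probe sets naming 1 gene by the platform annotation numbered 10833 and 34945, and those naming several genes or none were not members. Gene order came from RefSeq, GRCm38.p6. The array files name no build, so no coordinates of genes are given. Tests left out the dimmest 30% of probe sets by mean log2 signal (3727 and 13511). Limma 3.58.1 (lmFit, eBayes with an intensity trend, two-sided) compared genotypes, with Benjamini-Hochberg adjustment over 8695 and 31526 probe sets and a threshold of 0.05. For both platforms together, the log2 values of the 2 arrays of an extract were averaged per gene. Scripts were tested on simulated data.

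The members and gene lists were chosen with earlier results of these data known. Named genes are list members that were called or lay far from the chromosome median, the 12 highest and the lowest genes that moved 1 way in all comparisons on both platforms (8 were sought, 4 existed), the extreme tested members, and genes at the ends of neighbouring groups. Dand5, Ing1 and the genes called on 1 platform were named after their values were seen. Alternatives were another normalization, centring, offset, filter, probe set rule, variance model, a replicate block, and each pool left out in turn.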

Additional observations from a re-analysis of the deposited data

How the results depend on the processing

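The chromosome 8 median stayed above 0 in every alternative run. On U74Av2 (0.30) it moved beyond the spread between pools when arrays were centred on the other autosomes (0.36), when 16 was added before log2 (0.25) and over members above the lowest 50% of signal (0.35), and it was 0.31 to 0.32 with 1 pool left out. On MOE430v2 (0.33) it moved to 0.36 with centring, 0.30 with the offset, 0.35 and 0.37 above the lowest 30% and 50%, and 0.31 as a mean over all probe sets of a gene, and it was 0.31 to 0.33 with 1 pool left out. A loess fitted without chromosome 8 genes, chosen after seeing the data, gave 0.34.

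Counts of called genes depended far more on the settings. The U74Av2 count of 1 became 0 with no filter and with limma without an intensity trend, and was 0 to 1 with 1 pool left out. The MOE430v2 count of 14 became 9 without loess, 2 with no filter, 62 with the lowest 50% left out, 0 without the trend and 6 as a mean over probe sets, and was 2 to 12 with 1 pool left out. The count of 57 on both platforms became 33 with no filter and 0 without the trend, and was 6 to 64 with 1 pool left out, of which 6 to 48 were among the 57.

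Pools of the 2 genotypes share only a replicate number. Under a replicate block, 56, 195 and 126 members were called higher and 2, 4 and 0 lower, and the medians did not change. Of all tested on U74Av2, MOE430v2 and both together, 1.87%, 2.68% and 4.42% were then called higher. The correlation between the difference of the wild-type pools and that of the Foxa2 null pools was 0.11 over 8695 U74Av2 and 0.09 over 31526 MOE430v2 probe sets. Of 643 ratios of named genes recomputed under an alternative, 48 lost a call, 37 gained one and 0 changed sign. The pools of the 2 genotypes did not overlap for these genes. Leaving out a pool therefore could not change a sign, and nothing is read from the 0.

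An exact permutation test over 2 pools per genotype cannot pass. For dim genes the precision is low, since the wild-type pools differed by a median of 0.77 (U74Av2) and 0.74 (MOE430v2) among members of the lowest signal quintile.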
